A study of Rattus norvegicus with 9 samples.

Results

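Hpcal1, Hpca and Vsnl1 encode neuronal calcium sensors, and Calb1 and Calb2 encode the calcium buffers calbindin and calretinin. These 5 genes were described in cultured rat sympathetic neurons before and after addition of bone morphogenetic protein 7 (BMP-7), a growth factor that triggers dendrite formation in these cells. Every probe set annotated to 1 of the genes and to no other was taken, which gave 5 probe sets, 1 for each gene, of 8740 tested on the arrays. The set was chosen by measured values of the same arrays, namely the higher Hpcal1 and lower Calb1 values after BMP-7, and the other 3 genes were added as their relatives. All changes of the 5 genes after BMP-7 are therefore given as a description, without a test, and counts of them past a threshold are printed only beside the share of all probe sets.

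The 9 arrays held 3 conditions with 3 arrays each: control cultures kept for 24 hr in medium without BMP-7, BMP6h cultures exposed for 6 hr to 50 ng/ml of BMP-7, and BMP24h cultures exposed to the same dose for 24 hr. All of them were neurons of the superior cervical ganglion from Holtzman rat embryos of day 21. The neurons were grown in serum-free medium with nerve growth factor at 100 ng/ml and treated with Ara-C to deplete non-neuronal cells. The exposure or control period is given as beginning on day 5 in culture. The study states that RNA of all conditions was isolated together on day 6. Each array carried RNA pooled from cultures, and the same 3 control arrays served both comparisons. Microarray processing batch 1 held replicate 1 of each condition (10 µg of cRNA on the array), and batch 2 held the rest (5 µg).

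Values are log2 expression, so that a difference of 1 is a doubling, and the standard error (SE) of a log2 fold change comes from a fit over all probe sets with condition and batch as terms. Precision is limited by how many arrays there were, since arrays have no read depth. The neuronal identity of the cultures was checked with Th, which makes the precursor of noradrenaline and was at 13.49 ± 0.01 (SD, n = 3) in control cultures. The mean of 10 measured neuron markers ran from 11.97 to 12.06 on control arrays and from 11.90 to 12.05 on BMP24h arrays, while that of 10 fibroblast and matrix markers ran from 10.00 to 10.29 and from 9.73 to 9.94. Of the fibroblast and matrix markers, 8 were lower at 24 hr (median difference -0.31), and the part of this difference in the results was not tested. The mean of 8 satellite glia and Schwann cell markers ran from 7.05 to 7.13 on control arrays and from 6.98 to 7.25 on BMP24h arrays. For 6 endothelial and mural markers the range was 6.97 to 7.34 in control and 6.73 to 6.96 at 24 hr, and for 5 macrophage and blood markers 6.41 to 6.65 and 6.49 to 6.51. For the fibroblast and matrix list and the endothelial and mural list, the array means did not overlap between control and BMP24h arrays. The part of these differences in the results was not tested. No marker of these lists passed an adjusted p under 0.05 in limma at 24 hr. Of all probe sets 0.217% passed, so nothing is read from the lack of calls. The array of BMP6h replicate 2 differed most from its group: 9.99% of its probe sets were over 1 log2 unit away from the average of both other BMP6h arrays, and for every other array that share was 4.21% or less.

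Neuronal calcium sensors are small EF-hand proteins, and many of them carry a myristoyl group that is exposed when calcium binds and brings the protein to membranes. They pass calcium signals on to channels, receptors and enzymes. Hpcal1, also called VILIP-3, and Hpca, hippocalcin, are close relatives in this family, and Vsnl1 encodes VILIP-1. Calbindin and calretinin bind calcium with EF hands as well, but are known mainly for limiting the size and spread of calcium transients. Both are widely used as markers of neuron classes.

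The promoter windows of the 3 sensor genes are shown because Hpcal1 differed from its relatives in its change after BMP-7. They hold the 250 bases before the start site in the RefSeq promoter table (build GRCr8), written 5′ to 3′ on the strand of the gene. Capitals mark GTCT on either strand (AGAC on the strand shown), the core letters of the element that Smad proteins, the carriers of BMP signals, can bind.
Hpcal1 (GRCr8 chr6:46206644-46206893, plus strand): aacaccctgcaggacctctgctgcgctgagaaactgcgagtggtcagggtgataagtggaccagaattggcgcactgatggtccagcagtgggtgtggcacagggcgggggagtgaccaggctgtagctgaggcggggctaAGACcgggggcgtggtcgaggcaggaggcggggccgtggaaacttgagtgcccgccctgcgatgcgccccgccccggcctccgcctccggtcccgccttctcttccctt
Hpca (GRCr8 chr5:146748359-146748608, minus strand): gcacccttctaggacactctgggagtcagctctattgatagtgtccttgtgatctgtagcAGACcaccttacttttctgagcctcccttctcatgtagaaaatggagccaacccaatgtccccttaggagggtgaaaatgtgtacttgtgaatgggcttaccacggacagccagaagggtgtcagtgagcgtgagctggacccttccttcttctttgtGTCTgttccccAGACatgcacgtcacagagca
Vsnl1 (GRCr8 chr6:39878557-39878806, minus strand): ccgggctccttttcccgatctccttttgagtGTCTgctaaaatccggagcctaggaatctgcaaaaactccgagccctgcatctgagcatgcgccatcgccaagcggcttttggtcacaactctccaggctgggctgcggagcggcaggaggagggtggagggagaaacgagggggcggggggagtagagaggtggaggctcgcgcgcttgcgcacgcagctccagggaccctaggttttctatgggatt
The Hpcal1 window held 1 match, 109 bases before the start, the Vsnl1 window 1 match at 219 bases, and the Hpca window 3 matches at 190, 32 and 21 bases. A window with at least 1 match is common, since 84.0% of 33469 promoter windows of the same length held one. GGCGCC, a GC-rich element of BMP target genes that reads the same on both strands, was found in none of the 3 windows and in 8.7% of all windows. Bases G and C made up 67.2% of the Hpcal1 window, 60.8% of the Vsnl1 window and 50.8% of the Hpca window, with a median of 51.2% over all windows. These counts describe letters in the windows only.

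Of the 5 genes, Hpcal1 differed most from control after BMP-7, and Calb1 differed in the opposite direction. At 24 hr, Hpcal1 was 3.15-fold higher than in control cultures and Calb1 was 1.74-fold lower. Hpca, Vsnl1 and Calb2 differed from control by log2 fold changes between 0.16 and 0.26 at 24 hr, and in each of them the BMP24h arrays overlapped the control arrays. Without overlap between BMP24h and control arrays were 2 of the 5 probe sets, Hpcal1 and Calb1, where 12.7% of all probe sets had none. These values chose the set, so nothing is read from the count.

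The Hpcal1 probe set (D13126_at) was at 6.96, 7.13 and 6.81 in control replicates 1, 2 and 3. It was at 7.25, 7.67 and 7.32 in the BMP6h replicates and at 8.80, 8.60 and 8.47 in the BMP24h replicates. Every BMP6h array was thus above every control array, and every BMP24h array above every BMP6h array. The log2 fold change was 0.45 (SE 0.17) at 6 hr and 1.65 (SE 0.17) at 24 hr, and BMP24h exceeded BMP6h by 1.21 (SE 0.17). In linear terms Hpcal1 was 1.36-fold above control at 6 hr and 2.31-fold higher at 24 hr than at 6 hr. Of the 8740 probe sets, 10 had a higher log2 fold change at 24 hr and 574 at 6 hr. The highest of the BMP6h values was that of BMP6h replicate 2, and without it the log2 fold change at 6 hr was 0.31.

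Between arrays of the same replicate number, Hpcal1 was higher at 24 hr than in control by 1.84, 1.47 and 1.66 for numbers 1, 2 and 3. At 6 hr the same differences were 0.29, 0.54 and 0.51. Every BMP24h array was above every control array for Hpcal1, so the differences at 24 hr had to share a direction. Nothing is read from that direction. When single arrays were left out, the log2 fold change ran from 1.52 to 1.74. At an adjusted p under 0.05 in limma, 1 of the 5 probe sets (Hpcal1) was counted at 24 hr, where 0.217% of all probe sets were (19 of 8740), and 0 of the 5 at 6 hr, where 0.0458% were. Without any one of the control or BMP24h replicates the count at 24 hr was 0 of the 5, and at most 7 of all probe sets. The genes were selected on this contrast, so nothing is read from these counts.

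**Figure D1:**
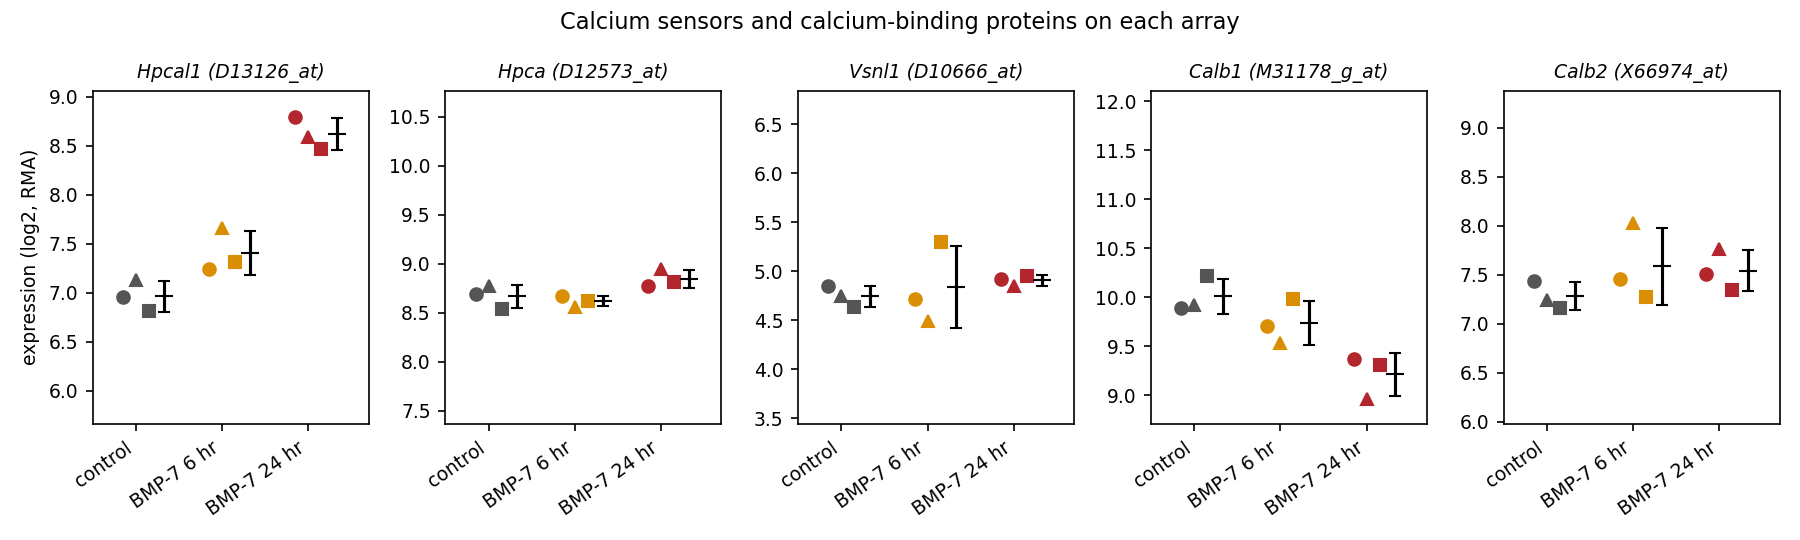
Expression (log2, y axis) of the 5 genes on each array by condition (x axis). Symbols tell replicates apart (1 circle, 2 triangle, 3 square), bars beside the points give mean ± SD of 3 arrays, and all panels span the same number of log2 units. Hpcal1 steps up from control to 6 hr to 24 hr, Calb1 is lowest on the 24 hr arrays, and the arrays of the other 3 genes overlap between control and 24 hr.

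Hpca is best known from hippocampal neurons, where its protein takes part in the slow afterhyperpolarization. Its probe set (D12573_at) was at 8.69, 8.77 and 8.54 in control cultures, 8.67, 8.56 and 8.62 in BMP6h cultures and 8.77, 8.95 and 8.81 in BMP24h cultures. The 24 hr values lay above all 6 hr values and overlapped control. Hpca had log2 fold changes of -0.05 (SE 0.12) at 6 hr and 0.18 (SE 0.12) at 24 hr, and BMP24h exceeded BMP6h by 0.23 (SE 0.12). Between the 2 times, Hpcal1, Hpca and Calb1 had arrays that did not overlap, where 9.67% of all probe sets had none, and nothing is read from this count. At an adjusted p under 0.05 in limma, 0 of the 5 were counted, as were 0% of all probe sets. Without the batch term and with array weights, 1 of the 5 (Hpcal1) was counted, among 6 and 198 of all probe sets. Batch had already been removed from the values, so the SEs without the batch term are too small.

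VILIP-1, the product of Vsnl1, is known to modulate receptors and guanylate cyclases at the membrane. The Vsnl1 probe set (D10666_at) was at 4.85, 4.74 and 4.64 in control cultures, 4.71, 4.49 and 5.30 in BMP6h cultures and 4.92, 4.85 and 4.95 in BMP24h cultures. It belonged to the dimmest 33% of the probe sets by mean value, so that a low level may not be measured well, and the file carries no detection call. Its log2 fold changes were 0.09 (SE 0.21) at 6 hr and 0.16 (SE 0.21) at 24 hr. The 6 hr values scattered most, with BMP6h replicate 3 the highest and BMP6h replicate 2 the lowest of the 9 arrays. Without replicate 3 the change at 6 hr was -0.16, and without replicate 2 it was 0.28.

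Within an array, the log2 value of Hpcal1 minus that of Hpca ran from -1.73 to -1.64 on control arrays, from -1.42 to -0.90 on BMP6h arrays and from -0.35 to 0.03 on BMP24h arrays. The log2 fold change of Hpcal1 exceeded that of Hpca by 1.48 log2 units (SE 0.18) at 24 hr and by 0.49 (SE 0.18) at 6 hr. The SE of such an excess comes from an ordinary fit to that pair alone, with condition and batch as terms. Against Vsnl1 the excess at 24 hr was 1.49 (SE 0.32), and at 6 hr it was 0.35 (SE 0.32), with arrays that overlapped between control and 6 hr. The excess shows unequal change of the probe sets and not which of the proteins was more abundant.

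Calb1 encodes calbindin, the buffer of many central and enteric neurons. Its probe set (M31178_g_at) was at 9.89, 9.92 and 10.22 in control cultures, 9.70, 9.54 and 9.98 in BMP6h cultures and 9.37, 8.96 and 9.31 in BMP24h cultures. All BMP24h arrays were below all BMP6h and all control arrays, while BMP6h replicate 3 lay within the control range. The log2 fold change was -0.27 (SE 0.18) at 6 hr and -0.80 (SE 0.18) at 24 hr, and BMP24h differed from BMP6h by -0.53 (SE 0.18). A lower log2 fold change at 24 hr was found for 67 of the 8740 probe sets. Between arrays of the same number the difference at 24 hr was -0.52, -0.96 and -0.91. The difference was thus smallest in batch 1, and leaving out single arrays gave changes between -0.92 and -0.66. In bulk RNA, fewer cells that express Calb1 and less Calb1 RNA per cell cannot be told apart.

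A further probe set, M31178_at, carries the same sequence accession in its name, but the annotation used here names no gene for it, and it was not counted among the 5. It was at 7.51, 7.51 and 7.72 in control cultures, 7.49, 7.04 and 7.59 in BMP6h cultures and 7.43, 7.39 and 7.62 in BMP24h cultures. Its log2 fold changes were -0.21 (SE 0.17) at 6 hr and -0.10 (SE 0.17) at 24 hr, and its arrays overlapped between the conditions. The lower Calb1 level at 24 hr thus rests on 1 probe set.

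Calb2 encodes calretinin. Its probe set (X66974_at) was at 7.44, 7.24 and 7.16 in control cultures, 7.46, 8.03 and 7.28 in BMP6h cultures and 7.51, 7.77 and 7.35 in BMP24h cultures. The 2 highest values were those of BMP6h replicate 2 and BMP24h replicate 2, and each BMP-7 group overlapped control. Its change was 0.31 (SE 0.22) at 6 hr and 0.26 (SE 0.22) at 24 hr, and the first was 0.067 without BMP6h replicate 2. The change of Calb1 at 24 hr lay 1.06 log2 units (SE 0.41, from an ordinary fit to this pair alone) below that of Calb2. Of the 5 probe sets, 1 had no overlap between BMP6h and control arrays, namely Hpcal1, where 10.6% of all probe sets had none.

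**Figure D2:**
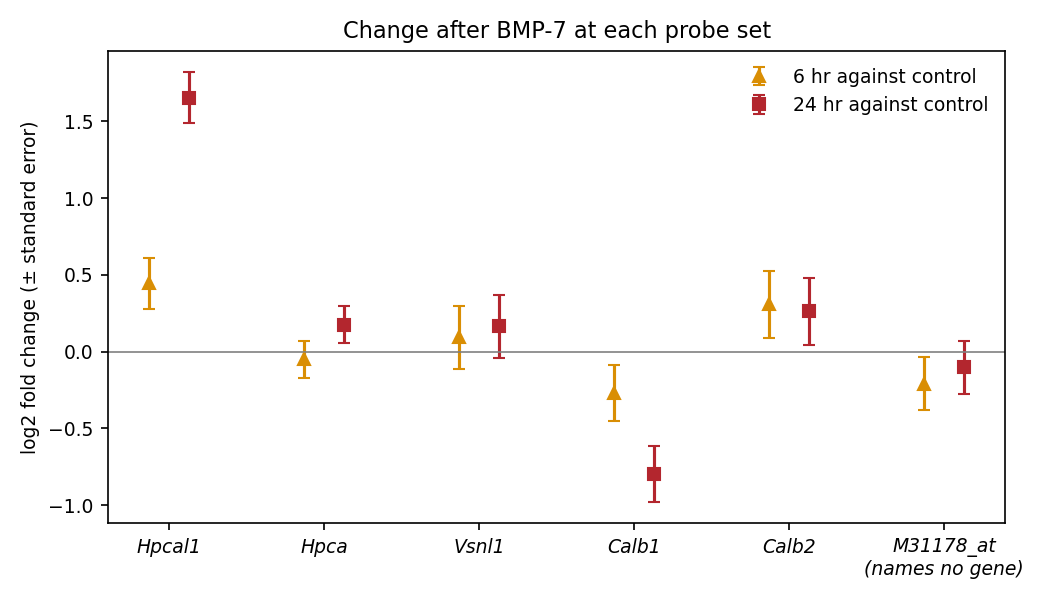
Log2 fold change against control (y axis, with standard error) at 6 hr (triangles) and 24 hr (squares) for the 5 genes and for the unnamed probe set M31178_at (x axis). Hpcal1 reaches 1.65 and Calb1 -0.80 at 24 hr, and the other points lie between -0.27 and 0.45.

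Across the 9 arrays the Hpcal1 and Calb1 probe sets correlated by r = -0.904, and those of Hpcal1 and Hpca by 0.690. Correlations of Hpcal1 with Vsnl1 and with Calb2 were 0.217 and 0.422. The probe sets of named genes most like Hpcal1 in their pattern over the arrays were those of Olfm1 (r = 0.981), a secreted neuronal glycoprotein, Cxcr4 (0.964 and 0.959 at 2 probe sets), a chemokine receptor, Tmem47 (0.953) and Gfra2 (0.942), a receptor for ligands of the GDNF family. Tmem47 was above control by 0.56 log2 units at 6 hr and by 1.19 at 24 hr (SE 0.22). Gfra2 was above control by 0.27 at 6 hr and 1.72 at 24 hr (SE 0.15). Most like Calb1 were Ptgs2 (0.980), which makes prostaglandins, Pdlim1 (0.973), a PDZ and LIM domain protein, Pde4b (0.968), which breaks down cyclic AMP, the neuropeptide precursor Cartpt (0.967) and the chemokine Ccl2 (0.961). All 5 had lower values at 24 hr than in control cultures, by log2 fold changes between -0.74 and -0.55. The correlations span the same 3 conditions and share the arrays, so they are given as a description without p-values.

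**Figure D3:**
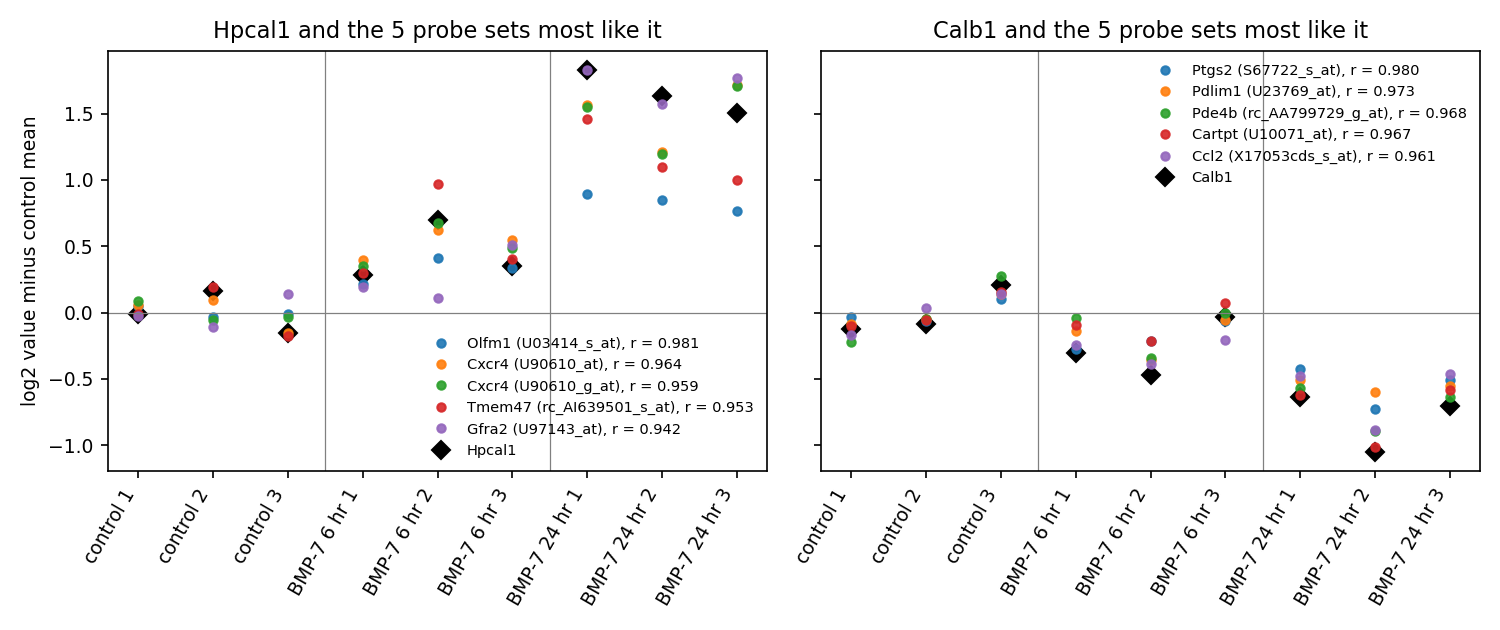
Log2 value minus the control mean (y axis) on each of the 9 arrays (x axis) for Hpcal1 (left, black diamonds) and Calb1 (right, black diamonds) and for the 5 probe sets most like each (colored circles). The points for Hpcal1 step up over the conditions, and those for Calb1 are lowest on BMP24h replicate 2.

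No probe set of the other calcium-binding genes passed the adjusted test. The 8 lists of calcium sensors, buffers, other calcium-binding proteins and binding partners of the sensors held 78 gene symbols. Grk2 was among them also under its other name, Adrbk1. Of the symbols, 47 were measured, at 81 probe sets. In limma, 0 of the 81 passed an adjusted p under 0.05 at 24 hr, at 6 hr or between the times. Of all probe sets 0.217%, 0.0458% and 0% passed, so nothing is read from the 0 of the lists. An unadjusted p under 0.05 was held by 3 at 24 hr, by 0 at 6 hr and by 1 between the times, where 3.40%, 1.73% and 2.96% of all probe sets held one. The median log2 fold change of the 81 at 24 hr was -0.02, beside 0.01 over all probe sets, and single values ran from -0.44 to 0.55. At 6 hr the median was 0.00, beside -0.02 over all probe sets. Fits without the batch term or with the replicate number as a block also called none of the 81. At 24 hr they called 38 and 18 of all probe sets. With the dimmer probe sets removed, 31 of all were called at 24 hr, and none of the list probe sets that remained. The ordinary two-way analysis called 0 of all probe sets in each comparison, so its lack of calls in the lists says nothing about them. With array weights, which gave BMP6h replicate 2 the least weight, 3 of the 81 were called at 24 hr. They were among 280 called of all 8740 probe sets, so nothing is read from the count. Of these 3, Anxa5 and Kcnd2 were lower (-0.32 and -0.29) and Rcn2 higher (0.38).

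Among the other neuronal calcium sensors, 2 of 10 genes were measured. Hpcal4, which encodes VILIP-2, had a log2 fold change at 24 hr of -0.04 (SE 0.20) at its brightest probe set, D14819_at. At the other 2, it had 0.32 (SE 0.15) at D13125_at and -0.07. At D13125_at it was at 6.04, 5.97 and 6.35 in control cultures and at 6.36, 6.44 and 6.52 in BMP24h cultures. These arrays did not overlap, where 12.7% of all probe sets had no overlap, and the difference did not pass (limma adjusted p = 1.00). Ncs1, a regulator of transmitter release and of a phosphatidylinositol kinase, had -0.10 (SE 0.17) at its brighter probe set and 0.26 (SE 0.34) at the other. In the same family Hpcal1 had a change of 1.65, and the 7 probe sets of Hpca, Vsnl1, Hpcal4 and Ncs1 had changes between -0.10 and 0.32. Hpcal1 was selected by its change after BMP-7, so nothing is read from this position. Vsnl1 was dim, so that a change of it may not be measured well.

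Cytosolic buffers other than calbindin and calretinin were measured at 4 probe sets of 3 genes, and their median was 0.06 at 24 hr. S100g, also known as calbindin-D9k, had 0.55 (SE 0.36) at its brighter probe set. This value went with 1 low control array, since the controls were at 6.00, 6.09 and 4.70 and the BMP24h arrays at 6.03, 6.26 and 6.16. Ocm, oncomodulin, had -0.14 (SE 0.20), and Pvalb, parvalbumin, had 0.10 (SE 0.38). Calmodulin was measured through Calm2, which had -0.21 (SE 0.13) at 24 hr, and the list that holds it with regulatory EF-hand subunits had a median of -0.08 over 5 probe sets. In the same list Tnnc2, a muscle troponin C, had 0.17.

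The 10 probe sets of S100 proteins ran from -0.14 to 0.13 at 24 hr around a median of 0.00, with -0.14 (SE 0.15) for S100a4 and -0.12 (SE 0.21) for the brighter probe set of S100b, whose other probe set had 0.13 (SE 0.19). The list of penta-EF-hand proteins and further calpains had 8 of 10 probe sets lower, with a median of -0.08. Most of these 8 were repeated probe sets of Capn3 and Capns1. Of all 8740 probe sets, 4210 were lower, and nothing is read from the count. In the same list the calcium-release regulator sorcin (Sri) had -0.28 (SE 0.15), and the calpain gene Capn6 had 0.22. Calcium-binding proteins of the endoplasmic reticulum and secretory pathway had a median of 0.05 over 17 probe sets, and at their brightest probe sets the calsequestrin gene Casq2 had 0.33 (SE 0.27) and the reticulocalbin gene Rcn2 0.22 (SE 0.16). Annexins, which bind membranes when calcium is present, had a median of 0.00 over 11 probe sets. Anxa5 had the largest difference among their brightest probe sets, with -0.27 (SE 0.11, limma unadjusted p = 0.0428, adjusted p = 1.00). At this probe set Anxa5 was at 10.80, 10.73 and 10.77 in control cultures and at 10.43, 10.44 and 10.63 in BMP24h cultures. The other Anxa5 probe set had -0.31 (SE 0.15). At both, the arrays did not overlap, where 12.7% of all probe sets had no overlap. Anxa2 had -0.17 (SE 0.11).

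**Figure D4:**
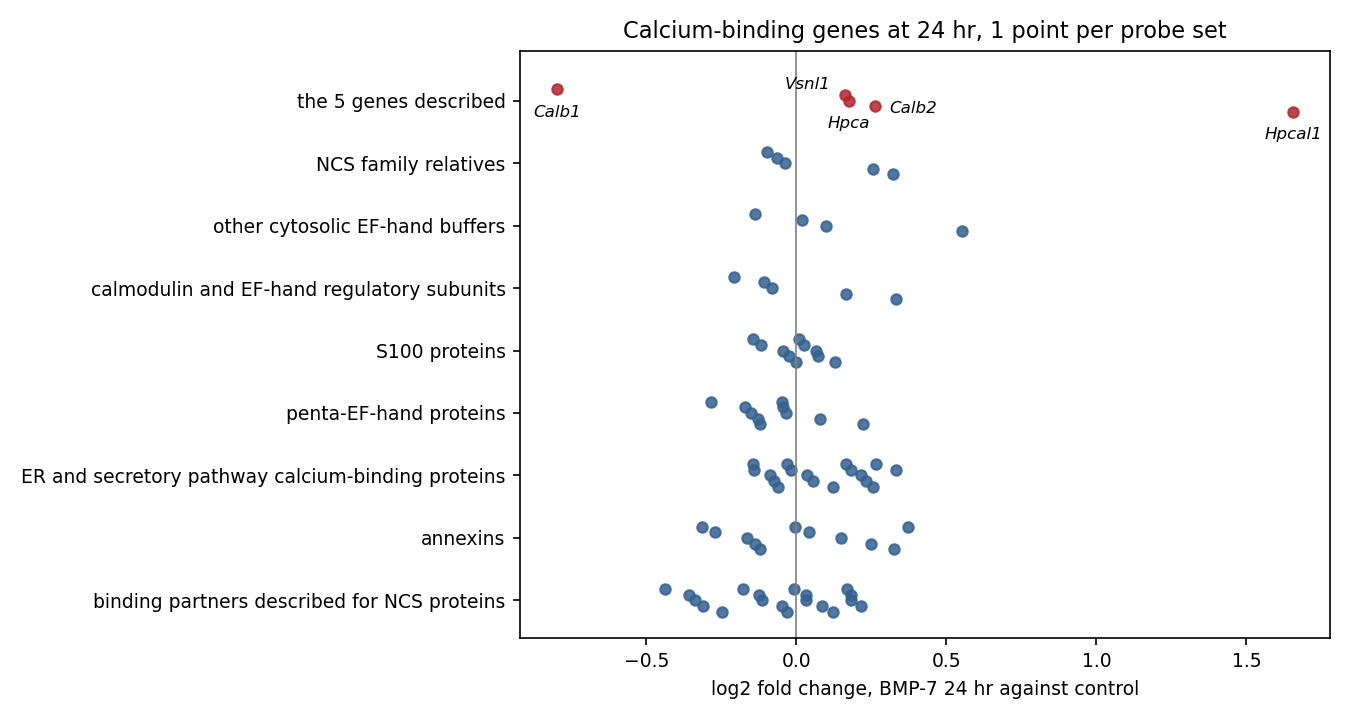
Log2 fold change of BMP24h against control (x axis) for each probe set of the 5 genes (top row, red) and of the 8 lists of other calcium-binding genes and binding partners (blue). Hpcal1 and Calb1 lie outside the range of the 81 other probe sets, which runs from -0.44 to 0.55. Both genes were selected by their change after BMP-7, so nothing is read from this position.

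Proteins that calcium sensors of this family are known to bind were measured at 19 probe sets of 10 genes, of which 11 were lower and 8 higher at 24 hr (median -0.03). Kcnd2, an A-type potassium channel, was at 5.74, 5.71 and 5.84 in control cultures and at 5.45, 5.51 and 5.39 in BMP24h cultures at probe set M59980_s_at. The difference of -0.31 (SE 0.11) had an unadjusted p of 0.0205 and an adjusted p of 1.00 in limma, and the other Kcnd2 probe set had -0.18 (SE 0.11). Drd2, the dopamine D2 receptor, which Ncs1 protein binds, was at 7.18, 7.27 and 7.15 in control cultures and at 6.97, 6.97 and 6.92 at 24 hr. Its difference of -0.25 (SE 0.10) did not pass either (limma adjusted p = 1.00). Pi4kb, the phosphatidylinositol kinase that Ncs1 protein activates, had -0.34 (SE 0.20) at its brightest probe set, and -0.44, -0.03 and 0.03 at the others. The study lists Kcnd2 and Drd2 among its lower genes from these same arrays, so their direction is not independent evidence.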

How the data were processed

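A total of 9 RNA samples, each pooled from cultures, was hybridized to Affymetrix rat expression arrays. The authors deposited log2 expression values, made with RMA in Partek Genomics Suite 6.5 and adjusted with its batch removal function (the version of RMA is not given in the sources used here). The largest gap between batch means was 6.67e-05, so batch differences in level cannot be seen in these values. No arrays were identical. Samples were grouped by their titles. The 59 control probe sets of 8799 were not used. In the platform annotation 7006 of the remaining 8740 carry 1 gene name, 308 several and 1426 none.

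The fit used limma 3.58.1 (R 4.3.3), entered condition together with batch, left 5 residual degrees of freedom, and applied the Benjamini-Hochberg adjustment to all 8740 p-values. In each of 3 experiments, 1 dissection supplied the samples of all conditions, and the labels do not say whether a replicate number marks a dissection. The fit was tested on simulated data. Members and lists were chosen with earlier results of these data known. Named are all member probe sets, for each list the genes that passed and the 2 with the largest change at 24 hr at the brightest probe set, and the 5 probe sets most like Hpcal1 and Calb1 by Pearson correlation. Other list genes named (Pvalb, Kcnd2, and further probe sets of named genes) were chosen after their values were seen. Promoter windows come from RefSeq (GRCr8), with entries for Hpcal1, Hpca and Vsnl1. Alternatives tried were no batch term, the replicate block, the Methods' ordinary two-way analysis, each batch alone (batch 1 chosen after seeing the data), dim probe sets removed, repeated quantile normalization, median centring, array weights (limma's gene-by-gene method, since the default REML method did not converge) and leaving out each array.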

Additional observations from a re-analysis of the deposited data

How the results depend on the processing

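The standard errors give the precision of 3 arrays a condition. The ordinary two-way analysis, the fits without batch or with the replicate block, and the removal of dim probe sets leave differences of group means as they are by construction. Under the others, single arrays left out aside, 66 values of the 5 genes moved by less than the spread between replicates and 9 by more. Array weights (gene-by-gene method, 0.093 for BMP6h replicate 2 to 5.76 for BMP24h replicate 1) gave a log2 fold change of -0.56 for Calb1 at 24 hr, counted 2 of the 5 probe sets at 24 hr (Hpcal1 and Calb1, selected on this contrast), and called 3 of the 81 other probe sets at 24 hr (Anxa5, Kcnd2 and Rcn2) and 1 between the times (Anxa5), against 0 and 0 without weights. In batch 1 alone, 1 array a condition, the changes at 24 hr were 1.84 for Hpcal1, -0.52 for Calb1, 0.072 for Calb2 and 0.067 for Vsnl1. The cause of these differences was not tested. In batch 2 alone and with the ordinary two-way analysis no probe set passed at 24 hr, Hpcal1 included. Over all probe sets, the calls at 24 hr (19) came to 38 when batch was not a term, 31 with dim probe sets removed, 280 with array weights and 0 to 26 when 1 array was left out. At 6 hr (4) they came to 9, 7, 29 and 0 to 3. Between the times (0) they came to 6, 3, 198 and 0. Batch means had already been removed from the values, so the fit without the batch term counts too many residual degrees of freedom. Its SE for Hpcal1 at 24 hr was 0.15, against 0.17 with the term, so its calls may be too many. With dim probe sets removed Vsnl1 had no value.

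When each array was left out in turn, the log2 fold change at 24 hr ran from 1.52 to 1.74 for Hpcal1, 0.11 to 0.23 for Hpca, 0.10 to 0.25 for Vsnl1, -0.92 to -0.66 for Calb1 and 0.14 to 0.38 for Calb2. At 6 hr it ran from 0.31 to 0.57 for Hpcal1, -0.12 to 0.01 for Hpca, -0.16 to 0.28 for Vsnl1, -0.40 to -0.16 for Calb1 and 0.067 to 0.48 for Calb2.

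With the replicate block the change of Hpcal1 at 24 hr is 1.65, by construction as without it. The block called 0 of the 81 probe sets in each comparison and 18 of all probe sets at 24 hr, Hpcal1 among them, against 19 with the batch term, and 5 between the times against 0. The deviations of same-numbered arrays from their condition means correlated by -0.74 to 0.532, over 0.1 in 2 of 9 pairs, and the best match of an array in another condition had its own number in 3 of 18 cases. The removal of batch means fixes the sum of the number 1 deviations at about 0, so these correlations cannot show whether a number marks a shared dissection.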

Other observations

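On BMP6h replicate 2, the array farthest from its group, further genes of the lists had extreme values. Anxa3, an annexin, was at 7.41 on this array and at 5.67 and 5.41 on the other BMP6h arrays, with control arrays between 4.95 and 5.76, and its other probe set was at 7.14 against 5.15 and 4.89. Kcnd3, a potassium channel subunit, was at 7.82 against 6.26 and 5.70 at probe set M74898cds_s_at, and Pvalb was at 8.21 against 6.98 and 6.63. The log2 fold changes of 0.76 and 0.96 for Anxa3 at 6 hr (SE 0.50 and 0.59) rest on this array. These genes were chosen after their values were seen.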
